A study of Mus musculus with 20 samples.

Results

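Of the 20 pancreas arrays in the series, 11 came from newborn mice (postnatal day 0, P0), and these newborn arrays are described here by how strongly they carried the target genes of FOXO transcription factors. The high state held 6 arrays, those of Iir-/- pups 2, 3, 4 and 6 and of wild-type pups 3 and 5. The low state held 5 arrays, those of Iir-/- pups 1 and 5 and of wild-type pups 1, 2 and 4. Iir, now named Elapor1, encodes inceptor, which is known to restrain signalling by the insulin and IGF1 receptors. The states were read from the arrays themselves, by a mean log2 signal of FOXO targets above or below 8.6, and were not assigned in the experiment. FOXO targets therefore differ by construction, and so may any gene that varies with them, so values of high against low arrays are given below as a description, with genotype as a covariate and without a test.

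All mice were C57BL/6J, either Iir-/- or Iir+/+. The newborn pups were starved for 5 h before collection (6 knockout and 5 wild-type arrays), and the mothers of the embryos at embryonic day 18.5 (E18.5) for 2 h (5 knockout and 4 wild-type arrays). The labels give no litter and no determined sex, and nothing in them states that every array had its own animal. The p-values below therefore measure the spread between these samples, which may be partly technical. In whole pancreas, fewer cells of a type and less RNA per cell cannot be told apart.

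All values are log2 signals, with medians near 5 on every array, and precision is limited by how many arrays there are. The inceptor gene followed its label on every newborn array. Elapor1 signals were 5.58 to 6.38 on the 6 knockout arrays and 11.07 to 12.01 on the 5 wild-type arrays. Exocrine pancreas markers were near the top of the scale in both states, with digestive enzyme means of 18.07 to 18.69 on high and 18.22 to 18.83 on low arrays, so the labelled tissue was present throughout. Of 26 measured digestive enzymes, 16 reached the top value of the scale on some array, which hides any difference in them. Y-linked genes were high on 1 array of each state (knockout 4, 7.76, and wild type 4, 7.99) and at most 4.44 on the other newborn arrays.

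FOXO factors are switched off by insulin. When insulin signalling is strong, the kinase AKT phosphorylates them and they leave the nucleus. In fasting they return and activate genes that spare glucose, raise insulin sensitivity, restrain growth and promote autophagy. Several of the same genes, and many others of the fasting response, are also activated by the glucocorticoid receptor, so the states were also set against a list of glucocorticoid-responsive genes.

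The list of FOXO targets used here holds 24 genes, of which 21 were measured above the signal filter. Bcl6 and Trim63 did not pass it and Insr was not analysed here. The 16 genes behind the boundary of 8.6 were not itemised, and on the list used here the boundary lies elsewhere. Genes described below as outside the list may therefore be among those 16. The list mean was 9.05, 8.67, 8.49 and 8.90 in high knockouts 2, 3, 4 and 6 and 8.59 and 8.56 in high wild types 3 and 5. It was 8.17 and 8.07 in low knockouts 1 and 5 and 7.90, 7.87 and 7.81 in low wild types 1, 2 and 4. The lowest high array was knockout 4 and the highest low array knockout 1, and between them lay 8.49 to 8.17. Embryonic arrays ran from 7.49 to 7.84, so the low newborn wild types stood beside the embryos and the high arrays stood apart.

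**Figure D1:**
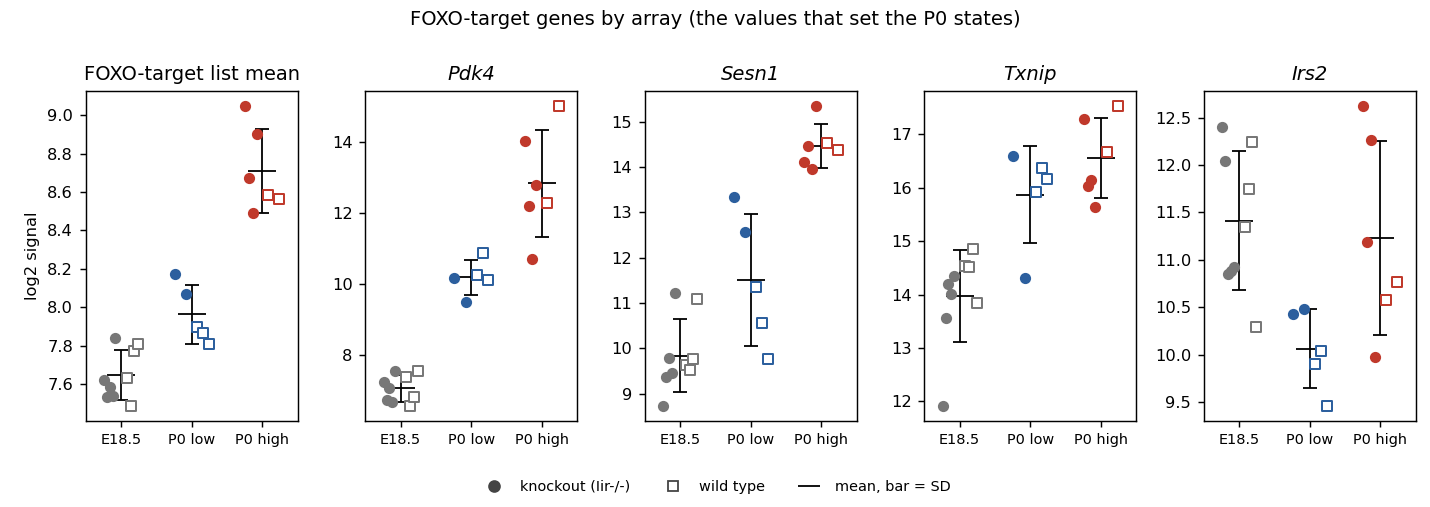
The mean log2 signal of the FOXO-target list and of 4 of its genes on each array, grouped on the horizontal axis as E18.5, P0 low and P0 high, with knockouts as filled circles, wild types as open squares and black bars for mean and SD. The list mean separates the newborn states because it follows the genes that set them. Of the 4 genes only Sesn1 separates every high from every low array, and Pdk4 lies above the embryos in both newborn states.

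The 4 marker genes were unequal in how cleanly they followed the state. Pdk4, the kinase that shuts pyruvate out of the mitochondrial citrate cycle, read 14.03, 12.19, 10.71 and 12.80 in high knockouts 2, 3, 4 and 6, and 12.28 and 15.004 in high wild types 3 and 5. In low arrays it read 10.17 and 9.49 in knockouts 1 and 5 and 10.26, 10.86 and 10.10 in wild types 1, 2 and 4. High knockout 4 thus lay below low wild type 2, and all other high arrays lay above the low ones. Sesn1, a sestrin that restrains mTORC1, read 14.12, 14.47, 13.96, 15.34, 14.53 and 14.37 on the high arrays in the same order and 13.34, 12.57, 11.34, 10.55 and 9.76 on the low arrays, and so separated the states fully. Irs2, the insulin receptor substrate that FOXO raises in fasting, overlapped (9.98 to 12.62 against 9.46 to 10.48), and so did Txnip, an inhibitor of thioredoxin and of glucose uptake (15.64 to 17.53 against 14.32 to 16.59).

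Beyond the markers, the FOXO list held genes of autophagy and of metabolism that were higher, and growth or antioxidant genes on both sides of 0. In all, 16 of its 21 measured members were higher in the high state after adjustment for genotype, with a median difference of 0.37. The background for that count is that 46.8% of all tested genes were above 0, and nothing is read from it since FOXO targets set the states. Gabarapl1, which builds autophagosomes, was at 7.43 to 8.52 on high and 5.85 to 7.11 on low arrays, and Bnip3, a mitophagy receptor, at 8.59 to 9.61 and 7.06 to 8.31. These genes and Sesn1 were the 3 members without overlap between the states. Ppargc1a, a coactivator of mitochondrial and gluconeogenic genes, differed by 1.07 and Klf15, a fasting transcription factor, by 0.50, both with overlap. Fbxo32, a ubiquitin ligase of muscle wasting, differed by 0.42, Cdkn1b, a cell cycle inhibitor, by 0.34 and Ccng2 by 0.21. Igfbp1, which binds IGFs, differed by 1.47, and the gluconeogenic genes G6pc and Pck1 by 0.37 and 0.28. The difference of Igfbp1 was 0.98 without knockout 5 and 2.41 without wild type 5, and that of Txnip, 0.88, was 1.35 without knockout 1 and 0.44 without knockout 5. The values of Igfbp1, G6pc and Pck1 were 0.65, 0.19 and 0.12 with the liver marker mean as a further covariate. Sesn3, Gadd45a, Eif4ebp1, Sod2 and Bcl2l11 lay between -0.18 and -0.01, and Cited2 and Cat at 0.12 and 0.09.

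The upstream sequences of the genes that lead the description show which of them carry a FOXO letter motif close to the start. The 250 bases before the annotated start were taken from RefSeq (GRCm38.p6) and searched on both strands for the FOXO motif GTAAACA and the insulin response motif CAAAACA, which end in the same letters, AAACA, although no position can match both. Letters in capitals mark a match, and all else is lower case. Txnip is shown for its FOXO motif, Irs2 for its insulin response motif (on the other strand), and Pdk4 as a marker, and Rbp2 and Hpgd as the named genes with the largest differences on the higher side, these 3 without a match.
Txnip, chr3:96557707-96557956, plus strand: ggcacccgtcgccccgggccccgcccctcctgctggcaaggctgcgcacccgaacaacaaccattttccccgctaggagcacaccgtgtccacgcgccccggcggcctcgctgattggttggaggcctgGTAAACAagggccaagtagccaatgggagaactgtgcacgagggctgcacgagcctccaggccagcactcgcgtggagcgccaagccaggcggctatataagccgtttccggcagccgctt
Irs2, chr8:11008930-11009179, minus strand: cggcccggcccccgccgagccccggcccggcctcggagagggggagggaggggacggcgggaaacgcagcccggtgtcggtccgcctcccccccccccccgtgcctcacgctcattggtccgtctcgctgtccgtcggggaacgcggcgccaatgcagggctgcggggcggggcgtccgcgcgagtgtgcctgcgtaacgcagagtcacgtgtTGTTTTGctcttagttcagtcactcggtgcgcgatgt
Pdk4, chr6:5496279-5496528, minus strand: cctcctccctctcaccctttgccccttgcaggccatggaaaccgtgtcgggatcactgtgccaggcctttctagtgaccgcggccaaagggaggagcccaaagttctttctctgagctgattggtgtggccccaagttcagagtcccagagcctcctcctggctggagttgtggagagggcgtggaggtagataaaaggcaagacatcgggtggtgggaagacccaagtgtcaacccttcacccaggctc
Rbp2, chr9:98490287-98490536, plus strand: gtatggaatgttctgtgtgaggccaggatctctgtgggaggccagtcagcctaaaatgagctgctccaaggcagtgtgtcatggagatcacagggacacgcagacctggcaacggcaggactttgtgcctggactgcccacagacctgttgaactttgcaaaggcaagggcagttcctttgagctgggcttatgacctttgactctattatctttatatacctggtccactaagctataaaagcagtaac
Hpgd, chr8:56294302-56294551, plus strand: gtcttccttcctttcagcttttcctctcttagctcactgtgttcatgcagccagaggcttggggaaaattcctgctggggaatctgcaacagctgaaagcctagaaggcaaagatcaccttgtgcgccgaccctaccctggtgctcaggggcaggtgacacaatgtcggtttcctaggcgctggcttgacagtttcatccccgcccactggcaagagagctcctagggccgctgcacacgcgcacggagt
Neither start of Sesn1 held a match in its window. The FOXO motif was found in 3.17% of 32851 promoter windows and the insulin response motif in 5.56%. Among genes without overlap between the states that had a window, 5 of 118 higher genes (4.24%) and 3 of 117 lower genes (2.56%) held the FOXO motif, beside 2.88% of tested genes. For the insulin response motif these were 8 of 118 (6.78%) and 5 of 117 (4.27%), beside 4.81% of tested genes. A match of letters is a description of these windows and no binding site.

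Outside the FOXO list, 160 of 17972 genes were higher on every high array than on any low array (0.89%), and 177 were lower on every high array (0.985%). Of these, 15 and 28 carry predicted, noncoding or pseudogene names and are counted but not named, so that the largest differences given below are those among the other genes. The largest on the higher side of all, 3.17, belonged to a pseudogene. The genotype-adjusted difference was at least 0.5 on the log2 scale in 76 of the higher and 51 of the lower genes, and at least 1 in 28 and 5. The median was 0.48 among the higher and -0.38 among the lower genes. Only 8 genes in each direction had a mean newborn signal under 5, near the array medians, and none reached the ceiling.

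**Figure D2:**
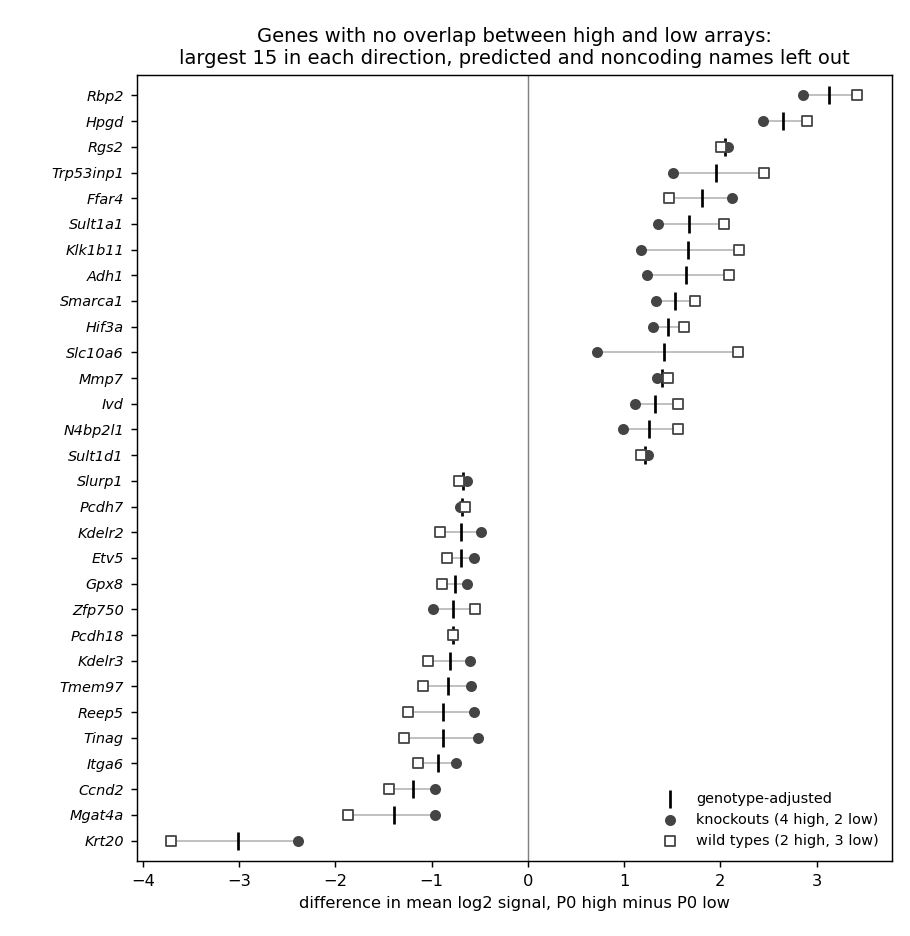
Differences in mean log2 signal between high and low newborn arrays for the 15 genes with the largest difference in each direction among those without overlap, predicted, noncoding and pseudogene names left out, in knockouts (filled circles), in wild types (open squares) and adjusted for genotype (vertical bars). Every gene shown points the same way in both genotypes, which full separation of the arrays requires, and the wild-type difference is the wider one for most of them, up to Krt20 at -3.71.

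On the higher side the genes named with the largest differences were Rbp2, Hpgd, Rgs2 and Trp53inp1. Rbp2, a cellular retinol-binding protein best known from the small intestine, read 10.37, 10.15, 10.21 and 13.23 in high knockouts 2, 3, 4 and 6, and 10.27 and 12.88 in high wild types 3 and 5. It read 8.45 and 7.81 in low knockouts 1 and 5 and 9.49, 7.42 and 7.54 in low wild types 1, 2 and 4, with means of 11.19 ± 1.455 (SD, n = 6) and 8.14 ± 0.85 (SD, n = 5) and an adjusted difference of 3.13 (8.73-fold). High knockout 6 and high wild type 5 stood well above the other high arrays. Intestinal RNA was measured beside it: the mean of the other 9 intestinal markers without Krt20 was 7.51 in high knockout 6 and 5.83 to 6.21 on the remaining high arrays, against 6.08 to 6.70 on low arrays. Wild type 5, with the second highest Rbp2, had the lowest intestinal mean of all newborn arrays, and Fabp2, a fatty acid-binding protein that defines absorptive gut cells, was at 12.09 in knockout 6 and 4.15 to 5.84 on the other newborn arrays (a gene chosen after its values were seen). Among embryos Rbp2 was highest, at 12.88, in knockout 2, whose intestinal mean of 10.25 was also the highest. The part of intestinal RNA in the Rbp2 signal of those arrays was not tested.

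Hpgd, the dehydrogenase that inactivates prostaglandins, read 13.996, 11.74, 11.46 and 13.17 in the high knockouts and 11.89 and 12.19 in the high wild types. The low arrays read 10.56 and 9.75 in knockouts and 9.74, 8.57 and 9.12 in wild types, with means of 12.41 ± 0.97 (SD, n = 6) and 9.55 ± 0.75 (SD, n = 5) and a difference of 2.66 (6.3-fold). The low arrays covered the embryonic range of 9.04 to 9.93, and the high arrays lay above it. Rgs2, which ends signalling by Gq-coupled receptors, had 12.74, 11.83, 10.35, 12.24, 10.92 and 10.05 on the high arrays in the same order and 9.91, 9.51, 8.52, 8.11 and 8.80 on the low arrays. Its means were 11.36 ± 1.08 (SD, n = 6) and 8.97 ± 0.73 (SD, n = 5), and the difference was 2.05. Trp53inp1, a stress protein induced by p53 and involved in autophagy, was at 9.83 to 11.60 against 7.17 to 9.73.

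Ffar4, the receptor for long-chain fatty acids, was at 6.34 to 9.45 on high and 4.68 to 5.89 on low arrays. Adh1, an alcohol dehydrogenase that also oxidises retinol, was at 9.03 to 9.97 against 6.92 to 8.85. Of the sulfotransferases, Sult1a1 was at 8.27 to 10.38 against 7.38 to 7.89, and Sult1d1 at 4.765 to 6.79 against 4.42 to 4.755, so that its low arrays were near the array medians. Ivd, which breaks down leucine, differed by 1.32 and Slc10a6, a transporter of sulfated steroids, by 1.41. The chromatin remodeller Smarca1, the hypoxia factor Hif3a, the matrix protease Mmp7 and N4bp2l1 differed by 1.26 to 1.53. Klk1b11, a tissue kallikrein, differed by 1.66, but its family holds near-identical copies whose signals the array may not tell apart.

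On the lower side the leading gene was Krt20, a keratin of gastrointestinal epithelium. It read 8.29, 8.27, 8.54 and 7.28 in high knockouts 2, 3, 4 and 6, and 8.598 and 9.93 in high wild types 3 and 5. It read 10.34 and 10.62 in low knockouts 1 and 5 and 11.76, 13.92 and 13.23 in low wild types 1, 2 and 4, with means of 8.49 ± 0.85 (SD, n = 6) and 11.98 ± 1.58 (SD, n = 5), a level 8.07-fold lower in the high state. Low wild types 2 and 4, with the most Krt20, also had the highest intestinal means without Krt20 among the low arrays (6.60 and 6.70). High knockout 6, which had the highest intestinal mean of the newborn arrays, had the least Krt20, and the part of intestinal RNA in the difference was not tested.

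Ccnd2, the D cyclin that carries cells into S phase, read 11.73, 11.12, 11.72, 10.74, 11.52 and 11.62 on the high arrays, against 12.44, 12.16, 12.76, 13.12 and 13.17 on the low arrays, or 11.41 ± 0.40 (SD, n = 6) against 12.73 ± 0.44 (SD, n = 5). All 11 newborn arrays except low wild types 2 and 4 lay below the embryonic range of 13.004 to 13.65. Mgat4a, which adds branches to N-linked glycans, was at 7.76 to 8.36 on high and 8.87 to 10.86 on low arrays. Kdelr2 and Kdelr3, receptors that return escaped proteins to the endoplasmic reticulum (ER), differed by -0.69 and -0.81. Other residents of the ER, Reep5, which shapes its tubules, Tmem97, which takes part in sterol handling, and Gpx8, a peroxidase, differed by -0.88, -0.83 and -0.75. Itga6, a laminin receptor, and Tinag, a basement membrane glycoprotein, differed by -0.93 and -0.88. Etv5, a transcription factor downstream of FGF signalling, differed by -0.69. The protocadherins Pcdh18 and Pcdh7, the epidermal factor Zfp750 and the secreted protein Slurp1 differed by -0.78 to -0.68, with the low-state signals of Slurp1 at 4.76 to 5.39, near the array medians.

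**Figure D3:**
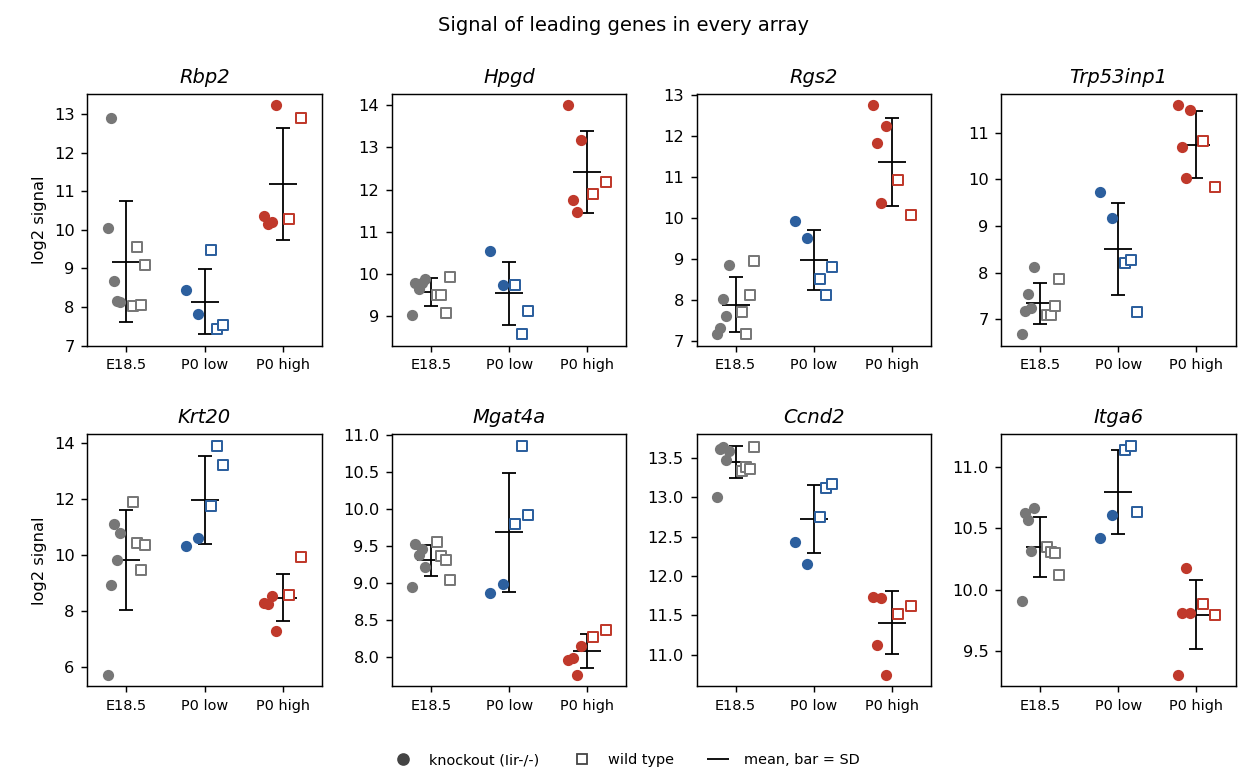
Log2 signal of the 4 genes with the largest difference in each direction, predicted, noncoding and pseudogene names left out, on every array (horizontal axis E18.5, P0 low and P0 high; filled circles knockouts, open squares wild types, black bars mean and SD). High and low newborn arrays do not overlap for any of the 8 genes. Embryonic arrays lie with the low newborn arrays for Hpgd and above both newborn states for most of Ccnd2.

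Glucocorticoid-responsive genes were higher in the high state as a group. Of their 22 measured members 21 were higher in the high state, at a median difference of 0.56, beside a median of -0.01 and 46.8% above 0 over all genes. The median was 0.31 in knockouts (18 of 22 above 0) and 0.95 in wild types (20 of 22). Over all genes outside the FOXO list, 7706 of 17972 were above 0 in knockouts and 9081 in wild types. Tsc22d3 (GILZ), a classic glucocorticoid-induced gene, read 7.25, 7.22, 6.75, 7.48, 7.36 and 7.41 on the high arrays and 6.63, 6.55, 6.28, 6.36 and 6.01 on the low arrays. With Sult1a1 and Hif3a it was one of 3 members without overlap. Over all genes outside the FOXO list 0.89% were higher and 0.985% lower without overlap, the background for this and the lists below. The list mean ran from 8.46 to 9.31 on high and from 7.60 to 8.67 on low arrays, and high knockout 4 lay below low knockout 1. Those are also the arrays on either side of the FOXO boundary. With the liver marker mean as a covariate the median was 0.60.

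Other genes of fasting and feeding were less uniform. Lpin1, a phosphatidic acid phosphatase and coactivator of fasting genes, was the one member of the fatty acid and triglyceride synthesis list without overlap, at 6.55 to 7.97 on high and 5.53 to 6.27 on low arrays. That list had 5 of 19 members above 0. Ppara, the receptor that turns on fatty acid oxidation, was without overlap but differed by 0.32 at a mean signal of 5.36 on high arrays, near the medians. The list of fatty acid oxidation and ketogenesis had 6 of 22 members above 0 (median -0.19), 13 of 22 in knockouts and 4 of 22 in wild types, and the median was -0.06 without wild type 3. Cholesterol synthesis genes had 3 of 18 above 0 (median -0.21, which was -0.35 without wild type 3, -0.06 without wild type 5 and -0.12 without knockout 1 or wild type 1), with Sqle at 6.98 to 8.15 against 7.84 to 8.56 and Hmgcs1 at 6.92 to 8.996 against 8.35 to 9.18, both overlapping. Autophagy and lysosome genes outside the FOXO list were near balance (20 of 33 above 0, median 0.02), and Atg2a, a lipid transfer protein of autophagosomes, was the member without overlap (0.32).

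Genes of DNA replication were lower in the high state as a group. Of 31 measured S phase genes 0 were above 0, at a median of -0.22. In wild types 0 of 31 were above 0 (median -0.41), and in knockouts 5 (median -0.11). The list mean ran from 6.41 to 6.69 on high and from 6.64 to 7.10 on low arrays, and high knockout 4 lay above low knockout 5. Pcna, the sliding clamp of replication forks, read 12.65, 12.56, 12.77, 12.43, 12.70 and 12.37 on the high arrays and 13.11, 12.86, 13.03, 13.14 and 13.33 on the low arrays, without overlap. Tyms, which makes thymidylate, was at 8.18 to 8.86 against 8.92 to 9.38, and Uhrf1, which copies DNA methylation, at 5.63 to 5.84 against 5.87 to 6.08. Of 33 mitotic genes 2 were above 0 and 30 below (median -0.17), and the median was -0.03 without wild type 5. In wild types 0 of 33 were above 0 (median -0.33) and in knockouts 15 (median -0.06), and 0 were free of overlap. Top2a and Cdc20, the mitotic genes with the largest difference, stood at -0.37 and -0.36 with overlap. High wild type 5 had the lowest mitotic mean of the newborn arrays, 6.94, and the other 10 lay between 7.42 and 7.87.

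**Figure D4:**
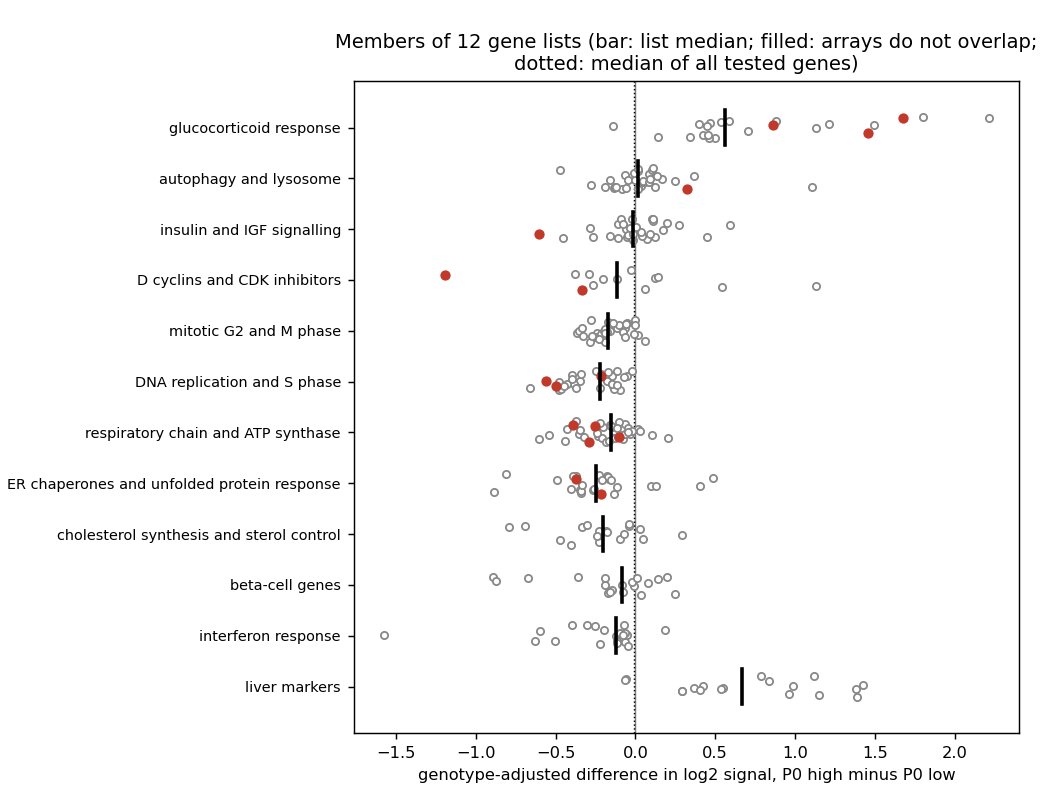
Genotype-adjusted differences in log2 signal between high and low newborn arrays (horizontal axis) for each measured member of 12 gene lists, filled red where the arrays of the states do not overlap, with a bar at each list's median and a dotted line at the median of all tested genes. The glucocorticoid list lies to the right at a median of 0.56 and the S phase list entirely to the left at -0.22, while insulin and IGF signalling genes surround 0. Liver markers lie to the right with no member free of overlap.

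Mitochondrial genes were also mostly lower. Of 40 respiratory chain and ATP synthase genes 4 were above 0 (median -0.15). Lower without overlap (0.985% of all genes) were Ndufa10 of complex I, Atp5b and Atp5o of ATP synthase and Cox4i1 of complex IV. Their differences were small, from -0.39 for Ndufa10 (10.48 to 11.17 on high, 11.26 to 11.56 on low arrays) to -0.10 for Cox4i1, whose highest high array was at 12.45 and lowest low array at 12.46. Mitochondrial ribosome genes had 8 of 32 above 0 (median -0.14), with Mrpl13 at 8.59 to 9.06 against 9.18 to 9.46. Among ribosome biogenesis genes, which had 11 of 30 above 0, the nucleolar proteins Fbl and Nolc1 were lower without overlap, by -0.37 and -0.29.

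Of 26 ER chaperone and unfolded protein response genes 4 were above 0, at a median of -0.25. The median was -0.09 in knockouts and -0.52 in wild types. Derl1, which extracts misfolded proteins, was at 8.84 to 9.19 against 9.20 to 9.98, and Syvn1, the ligase that marks them, at 6.88 to 7.12 against 7.14 to 7.45. The ATF4 list, which responds to amino acid shortage, was split, with 11 of 27 above 0, and Vldlr and Gpt2 were higher without overlap (0.52 and 0.38).

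The insulin and IGF signalling genes upstream of FOXO lay on both sides of 0 (14 of 31 members higher, median -0.02). One member was without overlap: Pik3r3, a regulatory subunit of phosphatidylinositol 3-kinase, read 6.17, 6.27, 6.35, 6.44, 6.68 and 6.84 on the high arrays and 6.99, 7.33, 6.85, 7.04 and 7.40 on the low arrays. Of the D cyclins, their kinases and their inhibitors, 5 of 13 were above 0. Ccnd2 and Rbl1, a pocket protein that represses E2F, were lower without overlap (-1.19 and -0.34).

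Beta-cell genes had 6 of 19 above 0 (median -0.09). G6pc2, the islet glucose-6-phosphatase, and Glp1r, the receptor for GLP-1, had the largest differences, -0.89 and -0.87, with overlap. Non-beta islet hormones and regulators had 2 of 9 above 0 (median -0.06), with Gcg at 16.37 to 16.73 against 16.33 to 17.27. Among 14 regulators and secretory genes of acinar cells 3 were above 0, at a median of -0.20, which was -0.34 in wild types, 0.03 in knockouts and -0.12 without wild type 1 or 3. Rbpjl, an acinar transcription factor, was at 10.32 and 10.69 in high wild types 3 and 5, against 11.84, 12.03 and 12.12 in low wild types 1, 2 and 4, but all 6 knockouts lay between 9.81 and 10.64 whichever their state. Of the digestive enzymes 3 were above 0 and 7 below. Gp2, a membrane protein of zymogen granules, was higher (1.58) and Pla2g1b, a secreted phospholipase, lower (-0.87), both with overlap. Mmp7 was the one duct list member without overlap among 15.

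Markers of other cells and organs moved with the state to a varying extent. Of 18 liver markers 16 were higher in the high state (median 0.67), with list means of 9.997 to 12.10 in high knockouts, 10.64 and 6.996 in high wild types 3 and 5, 8.71 and 9.70 in low knockouts and 8.07 to 10.52 in low wild types. The median was 1.87 in knockouts and -0.30 in wild types, and no member was without overlap. Leaving out 1 array gave medians between 0.297 without knockout 5 and 1.64 without wild type 5, and it moved by over 1.5 times also without knockout 2 (0.44) or 6 (0.43) and without wild type 3 (0.304) or 4 (1.20). Fgb, a fibrinogen chain made in hepatocytes, ran from 5.41 in high wild type 5 to 14.34 in high knockout 6. Neutrophil markers were above 0 in 8 of 9 cases (median 0.54), with S100a9 at 15.06 to 17.25 against 13.90 to 17.21. That median was 0.08 without knockout 5, 0.36 without wild type 1 and 0.32 without wild type 3. Erythroid markers were above 0 in 7 of 7 cases (median 0.21), with a median of 0.39 in knockouts and 0.008 in wild types (4 of 7 above 0). Interferon response genes were above 0 in 1 of 20 cases (median -0.12, or -0.22 without knockout 5, -0.20 without wild type 1 and -0.08 without wild type 2), with Bst2 at 9.85 to 12.46 against 11.73 to 13.46.

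Of the macrophage markers 9 of 18 were above 0, and Cd163, the haemoglobin scavenger receptor that glucocorticoids induce, was higher without overlap (6.51 to 6.93 against 5.60 to 6.05). Of the adipocyte markers 4 were measured and 4 were above 0, and Lpl, the lipase that frees fatty acids from lipoproteins, was without overlap (8.15 to 8.32 against 7.55 to 7.83). The mean of these 4 ran from 7.66 to 7.93 on high and from 7.165 to 7.615 on low arrays. Apart from the FOXO targets, no other list mean was free of overlap. Skeletal muscle markers were high on knockout 4 alone (list mean 8.32, against 5.30 to 6.37 on the other newborn arrays). Mesenchymal and matrix genes had 2 of 22 above 0 at a median of -0.06, and endothelial markers 12 of 18 at 0.03. The endothelial markers went opposite ways in the genotypes, with 2 of 18 above 0 in knockouts (median -0.21) and 16 of 18 in wild types (0.23). The differences of the leading genes were similar with the liver marker mean as a further covariate, at 3.29 for Rbp2, 2.57 for Hpgd, 1.84 for Rgs2, -2.99 for Krt20 and -1.21 for Ccnd2. The part of the other tissues' RNA in the results was not tested.

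**Figure D5:**
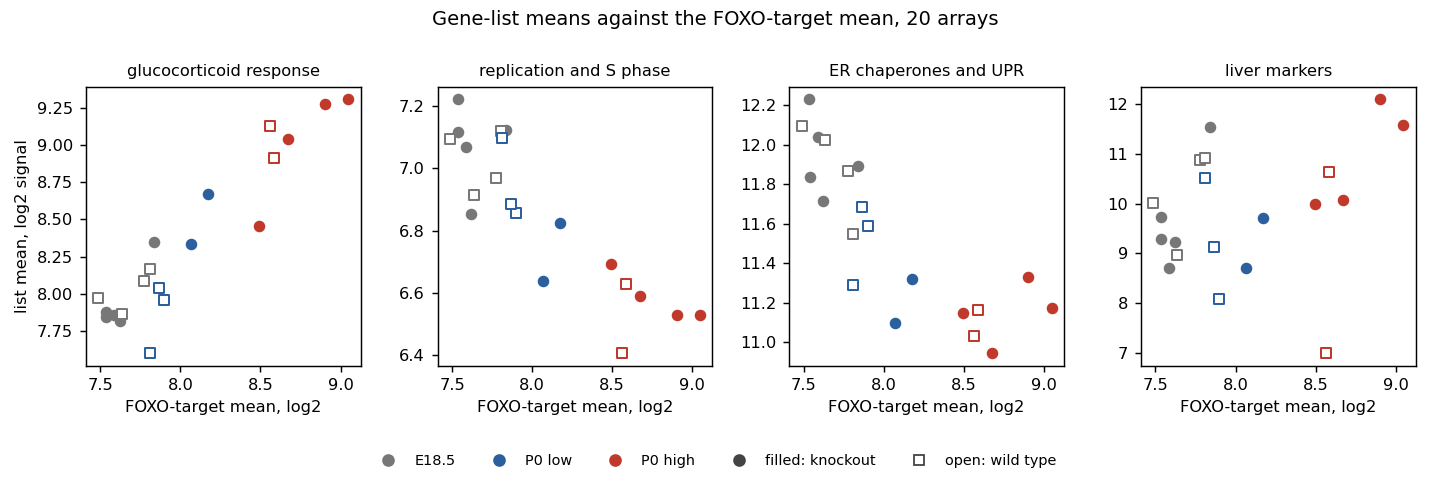
Mean log2 signal of 4 gene lists (vertical axes) against the FOXO-target mean (horizontal axes) on all 20 arrays, coloured by age and newborn state, with knockouts as filled circles and wild types as open squares. Glucocorticoid genes run upward and S phase genes downward along the newborn arrays, ER chaperones are highest in embryos, and liver markers range from 6.996 to 12.10 among the high arrays alone.

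The embryonic arrays, which did not enter the rule, offered a separate look at whether the same genes vary with FOXO targets. Across the 9 E18.5 arrays, with genotype in the model, each gene outside the list was fitted against the FOXO-target mean, which ranged only from 7.49 to 7.84. With limma 0 genes were called in either direction (0% and 0%), while 1397 had an unadjusted p under 0.05. Slopes are log2 units per unit of the FOXO-target mean. They were above 0 for 121 of the 160 genes that were higher at P0 (75.6%) and for 50.4% of all genes, and at an unadjusted p under 0.05 there were 23 slopes above and 3 below 0 among the 160. They were below 0 for 111 of the 177 lower genes (62.7%), beside 49.6% of all genes, with 5 above and 10 below 0 at that p. Over all genes 780 slopes were above 0 and 617 below at an unadjusted p under 0.05.

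Of the 15 leading higher genes 13 had a slope above 0 at E18.5, and 6 of them had an unadjusted p under 0.05 (40%, beside 4.34% of all genes). They were Rgs2 (4.55 ± 0.94 SE), Trp53inp1 (2.42 ± 0.91), Smarca1 (2.02 ± 0.80), Slc10a6 (1.4045 ± 0.44), Mmp7 (1.28 ± 0.39) and Hif3a (1.24 ± 0.38), with limma adjusted p from 0.376 to 0.617. The slopes of Rbp2 and Hpgd were -4.64 ± 3.94 and 0.34 ± 0.92. Of the 15 leading lower genes 6 had a slope below 0. Tinag (-1.31 ± 0.53) was below 0 and Slurp1 (1.86 ± 0.67) above 0 at an unadjusted p under 0.05, and the slopes of Krt20 and Ccnd2 were 0.62 ± 4.73 and 0.31 ± 0.61.

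Glucocorticoid-responsive genes had 16 of 22 slopes above 0 at E18.5, with a median of 1.20, and 9 were above and 0 below 0 at an unadjusted p under 0.05. Sgk1, a kinase of sodium transport induced by glucocorticoids, had a slope of 2.14 ± 0.35 and the clock gene Cry2 one of 1.504 ± 0.24, both among the 5 smallest p-values on the higher side (limma adjusted p = 0.374). Zfp945 (2.01), Mmp8 (4.36) and Cyp3a25 (2.04) were the others, and Rcor3, Mien1, Banp, Top1 and Kcnrg had the smallest on the lower side (-2.64 to -1.72). ER chaperone genes had 5 of 26 slopes above 0 (median -0.96), with 8 below 0 at that p, whereas S phase genes had 13 of 31 above 0 (median -0.09). Some lists with most members below 0 at P0 had most slopes above 0 at E18.5. These were interferon response (17 of 20), mesenchymal and matrix genes (16 of 22) and fatty acid oxidation and ketogenesis (18 of 22). Liver and neutrophil markers ran with the FOXO-target mean in embryos. That mean includes Igfbp1, G6pc and Pck1, whose newborn differences were smaller with the liver covariate. Igfbp1 and the liver mean were both highest in embryonic knockout 5, at 8.27 and 11.54, so the liver slopes may be partly built in. Slopes were above 0 for 18 of 18 liver markers (median 5.43, 11 at an unadjusted p under 0.05) and for 9 of 9 neutrophil markers (median 4.98, 9 at that p), and 3 of 3 Y-linked genes also had an unadjusted p under 0.05. Their part in the other slopes was not tested.

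The labelled comparison of genotypes at P0 was then made with and without the state in the model. The state was read from signals on these same arrays, and FOXO targets are among the genes tested. The values with the state are therefore given as a description, and whether the state depends on genotype was not tested. Without the state, limma called 0 genes higher (0%) and 2 lower (0.0111%) in knockouts. These were Elapor1 (-5.49 ± 0.18 SE, adjusted p = 8.1e-13) and Man1a2, a Golgi mannosidase (-1.71 ± 0.25, adjusted p = 0.0251). Man1a2 read 6.78 to 8.395 on the 6 knockout arrays and up to 9.51 on the 5 wild-type arrays, and low wild type 4 lay below low knockout 5. With the state in the model 0 were called higher (0%) and 1 lower (0.00556%), Elapor1 at -5.51 ± 0.19, and Man1a2 stood at -1.65 ± 0.27 (adjusted p = 0.0898). The number of genes with an unadjusted p under 0.05 was 1576 without and 1098 with the state. The call of Man1a2 without the state ended without knockout 2, 3, 4 or 6 or without wild type 2 or 5 (adjusted p from 0.0705 to 0.102). With the state, Man1a2 was called without knockout 5 or without wild type 1 or 4 (limma adjusted p from 0.000708 to 0.0227). The count without the state was 45 without knockout 1 (37 higher and 8 lower) and 40 without wild type 1 (36 and 4). It was 11 without wild type 3 (1 and 10) and 3 without knockout 5. With the state it was 44 without wild type 1 (39 and 5) and 5 without wild type 3. Predicted genes with Gm names were among those called without knockout 1 or without wild type 1. Of all tested genes 295 repeated the values of another gene.

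Of the 160 and 177 genes without overlap between the states 0 were called for genotype, where 2 were called in all. An unadjusted p under 0.05 was found for 34 (21.2%) and 20 (11.3%) of them, beside 8.73% of all genes outside the FOXO list. Since 4 of the 6 high arrays and 2 of the 5 low arrays were knockouts, genotype and state overlap in these arrays. Gabarapl1 and Sesn1 stood at 1.23 ± 0.36 SE and 1.86 ± 0.77 between genotypes (limma adjusted p = 0.395 and 0.549), although within each genotype the high arrays were above the low ones. For Rgs2, Trp53inp1 and Mgat4a the values between genotypes were 1.81 (adjusted p = 0.465), 1.59 (0.476) and -1.16 (0.429).

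The genes named above were also compared between newborns and embryos. Age cannot be told apart from fasting here, since the pups were starved for 5 h and the mothers of the embryos for 2 h. The running numbers of the samples also split by age, 1 to 12 at P0 and 13 to 22 at E18.5. Age and that order cannot be told apart either. The age contrast shares the newborn arrays with the states, so its values are given beside the others and no overlap between the contrasts is drawn. With limma 2836 genes were called higher (15.8%) and 2651 lower (14.7%) at P0 than at E18.5. Pdk4 rose by 4.58 ± 0.61 SE (adjusted p = 3.69e-05) and read 6.56 to 7.53 in embryos, below every newborn array of either state. Sesn1 rose by 3.18 ± 0.58 and Txnip by 2.25 ± 0.36, whereas Irs2 stood at -0.76 ± 0.36 (adjusted p = 0.121). Rgs2 and Trp53inp1 rose by 2.30 ± 0.45 and 2.31 ± 0.41, Klk1b11 by 1.74 ± 0.34 and Hpgd by 1.47 ± 0.53 (adjusted p = 0.0412). Rbp2 (0.65 ± 0.80) and Krt20 (0.28 ± 0.76) did not pass with age.

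Glucocorticoid-responsive genes were called higher at P0 in 13 of 22 cases and lower in 0. S phase genes were called lower in 23 of 31 cases and ER chaperone genes in 21 of 26. The age differences of Tinag, Reep5, Ccnd2 and Tmem97 were -1.97 ± 0.22, -1.90 ± 0.22, -1.403 ± 0.24 and -1.37 ± 0.20 (limma adjusted p from 7.27e-06 to 0.00029). Kdelr2 and Kdelr3 were both at -0.72 (limma adjusted p = 0.00515). The other leading lower genes, among them Itga6 (-0.07), Gpx8 (0.11) and Slurp1 (0.19), were not called for age. Cholesterol synthesis genes were all called lower (18 of 18, median -1.29), with Hmgcs1 at -2.73 ± 0.27. Leaving out the high arrays, 3811 genes were called for age, and leaving out the low arrays 5018.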

How the data were processed

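The authors deposited 1 table of log2 signals per probe set for 20 Affymetrix arrays, made with RMA (background correction, quantile normalization and probe summary) in Affymetrix Expression Console 1.4.1.46, per the submitters' processing notes. Of 65956 probe sets, 30604 carried 1 gene symbol, 2146 several and 33206 none in the platform annotation. Each gene was represented by its probe set with the highest mean, and 17993 genes entered the tests (17972 outside the FOXO list), each with 4 or more arrays on which it exceeded that array's median. The arrays of the states were taken from the rule that defines them. Genes were compared between states by whether the arrays overlapped and by a linear model with genotype, without a p-value. Genotype, age and the E18.5 slope were tested with limma 3.58.1 in R 4.3.3 with Benjamini-Hochberg adjustment, called at an adjusted p under 0.05, and the fits were tested on simulated data. The model for genotype and age used all 20 arrays and 4 group means.

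Gene names came from the platform annotation, updated through RefSeq, and promoter sequences from RefSeq. Named genes were Elapor1, the FOXO list, the 15 genes with the largest difference in each direction without overlap (predicted, noncoding and pseudogene names left out), up to 4 such members of each list (or up to 2 overlapping ones), and per test up to 10 called genes in each direction or else the 5 with the smallest p. The states, members and gene lists were chosen with earlier results of these data known. Alternatives covered the signal filter, normalization, probe set choice, covariates and leaving out arrays.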

Additional observations from a re-analysis of the deposited data

Results flagged for a closer look

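In 12 of 186 groups of newborn arrays examined, 1 array stood far from the others of its state by Dixon's criterion, which chance meets in about 1 in 20 groups. Among single genes, Ffar4 was lowest in low wild type 2 at 4.68 (nearest low array 5.65) and Mmp7 highest in high knockout 4 at 9.06 (nearest 6.96). Sult1d1 was highest in low knockout 5 at 4.76 (nearest 4.49), and Pcdh18 lowest in high knockout 6 at 6.34 (nearest 7.12).

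Among list means, beta-cell genes were highest in high knockout 2 at 8.54 (nearest 8.22) and imprinted fetal growth genes in the same array at 10.13 (nearest 9.97). Other islet hormones and regulators were lowest in low wild type 1 at 12.1 (nearest 12.63), and D cyclins and CDK inhibitors lowest in low knockout 5 at 8.02 (nearest 8.14). Intestinal markers were highest in high knockout 6 at 7.49 (nearest 6.42) and skeletal muscle markers in high knockout 4 at 8.32 (nearest 5.76). Y-linked genes were highest in high knockout 4 at 7.76 (nearest 4.36) and in low wild type 4 at 7.99 (nearest 4.44).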

How the results depend on the processing

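The counts of genes without overlap, 160 higher and 177 lower, became 250 and 302 when overlap was judged within each genotype, 76 and 51 with a difference of at least 0.5, and 545 and 503 without the 2 arrays at the boundary, an alternative chosen after seeing the data. Leaving out 1 array gave 182 to 353 higher and 223 to 329 lower genes, both highest without knockout 1. The genotype count of 2 was 1 with array weights, with P0 arrays alone, with a replicate block and with marker means as covariates, and 1 to 45 leaving out 1 array. With the state it was 1, or 2 after quantile normalization, cyclic loess or robust eBayes with a trend, and 1 to 44 leaving out 1 array. The count of E18.5 slopes was 0, and 1 with the skeletal muscle mean as a covariate, and 0 to 1 leaving out 1 array (1 without knockout 4). It was 0 with the liver or intestinal mean and with a replicate block. For newborn replicates 1 to 5, each array's deviations from the mean of its genotype were compared between the same-numbered knockout and wild type. These deviations correlated between -0.0308 and 0.245, so the numbers were not taken as pairs. The age count was 4810 to 5773 leaving out 1 array. Of 90 gene and list differences, values moved beyond the spread in 6 within knockouts, 11 within wild types, 2 without knockout 5 and 1 without wild type 3, and in 0 under the liver covariate and the 3 normalizations. The spread is the SD within states, so a value that varies widely can change much without being counted. Under the liver covariate Igfbp1 went from 1.47 to 0.65 and the median of liver markers from 0.67 to 0.10. Among the moved values, list medians near 0 changed sign for the circadian clock (-0.119) and ATF4 targets (0.06) within knockouts, adrenal and mesothelial markers within wild types (-0.32) and insulin and IGF signalling without wild type 3 (0.05). Medians under 0.1 in size also moved by over 1.5 times or changed sign when 1 array was left out in most such lists. The causes were not tested.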
